A study of Homo sapiens with 6 samples.

Results

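The 10 genes described here encode amino acid transporters of the cell surface: SLC7A11, SLC3A2, SLC7A5, SLC43A1, SLC7A1, SLC1A4, SLC1A5, SLC38A1, SLC38A2 and SLC6A9. They were taken by symbol from a list of members, and all 10 were found among the 34690 gene symbols measured. All 6 arrays are labelled as RNA of SNU761, an established hepatocellular carcinoma cell line, after 24 h with sorafenib (3 arrays) or with its vehicle DMSO alone (3 arrays), and both groups were numbered 1 to 3. Sorafenib is a multikinase inhibitor that acts on RAF kinases and on receptors for VEGF and PDGF. The labels write the dose as 3 mM, which is far above usual culture doses, so its unit is uncertain. They do not say whether arrays of a group came from separate cultures, so the p-values measure only the spread between these samples. Between arrays 1 and 2 that spread may be technical, while the arrays numbered 3 differ from them in cell type markers, as given below. Arrays that carry the same number, 1 per group, are called a pair, and every difference is sorafenib minus control on the log2 scale of normalized signal.

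Cells take up amino acids through transporters that either exchange them across the membrane or bring them in with sodium. SLC3A2 (4F2hc, also called CD98) carries no substrate itself; as a heavy chain it is joined by a disulfide bond to light chains such as SLC7A5 or SLC7A11 and brings them to the surface. When amino acids are short or protein folding in the endoplasmic reticulum is disturbed, the transcription factor ATF4 is translated and, with partners such as CEBPG, binds CARE elements in genes of amino acid supply. Several of the 10 transporters, among them SLC3A2 and SLC7A11, are known ATF4 targets, and SLC7A11 is also a known target of NFE2L2 (NRF2). In liver cancer cells, SLC7A11 is studied for its part in ferroptosis, a death by lipid peroxidation that cystine uptake and glutathione hold back.

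The promoter sequences show where the letters recognised by these factors lie. RefSeq windows (GRCh38.p14, 250 bases before to 50 after a transcript start) were matched for 9 of the 10 genes, and SLC7A11 was not matched. The core TGATGNAA of a CARE element, searched on both strands, stood in 5 of the 16 windows of these genes, against 3.62% of all 34943 windows. The genes include known ATF4 targets, so this share is not independent of how they were chosen. The matches are shown in capitals, 5′ to 3′ on the strand of the gene; for SLC3A2 and SLC1A4 the capitals hold the motif's reverse complement.
SLC3A2, chr11:62881725-62881748 (plus strand), match starting at 38: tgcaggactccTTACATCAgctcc
SLC1A4, chr2:64989381-64989410 (plus strand), match starting at −7: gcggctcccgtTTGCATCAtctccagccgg
SLC1A5, chr19:46784893-46784922 (minus strand), match starting at −97: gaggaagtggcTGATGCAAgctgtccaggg
SLC38A1, chr12:46266502-46266531 (minus strand), match starting at −4: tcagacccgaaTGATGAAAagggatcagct
SLC7A1, chr13:29595663-29595692 (minus strand), match starting at 8: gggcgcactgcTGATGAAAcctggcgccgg
Positions count from −1 just before the start and from 1 at the first transcribed base. The antioxidant element bound by NRF2 and related factors, searched as TGACNNNGC on both strands, stood in 4 of the 16 windows, against 13.3% of all windows. The matches start at −37 in SLC3A2, −2 in SLC7A5, −85 in SLC7A1 and −111 in SLC1A5. SLC7A5 and SLC7A1 were lower in pairs 1 and 2 and higher in pair 3, while SLC3A2 and SLC1A5 were higher in every pair. The match in SLC3A2 lies 37 bases before the start of the same transcript as above, and is shown because that gene had the clearest difference of the 10.
SLC3A2, chr11:62881652-62881681 (plus strand): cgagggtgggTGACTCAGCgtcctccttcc
The E-box CACGTG, a site for MYC and other factors, stood in 3 of the 16 windows, 1 each of SLC7A5, SLC1A5 and SLC43A1, against 7.23% of all windows. No match of 1 motif overlapped a match of another in these windows. A match is a description of letters and not evidence of binding.

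The arrays numbered 3 stood apart from the other 4 and may not be of the same cells. APOA2, an apolipoprotein of hepatocytes, had a log2 signal of 15.67, 14.44 and 5.32 on sorafenib arrays 1, 2 and 3, against 15.69, 14.56 and 5.45 on control arrays 1, 2 and 3. RAC2, a GTPase of blood cells, had 5.33, 5.04 and 14.51 with sorafenib, against 5.54, 5.15 and 14.03 with DMSO, and the adhesion protein CD44 had 6.63, 7.54 and 13.08, against 6.86, 7.35 and 13.09. Each of these genes was thus bright in 1 set of arrays and dim in the other, in both groups alike. The labels name SNU761 for every array, and whether the arrays numbered 3 are of that line was not tested, so a mean, SD or count over 3 pairs may span different cells. Of 10 hepatocyte and liver cancer markers, 6 were detected on each array numbered 3 and 9 to 10 on the others, and their summed level was 35164 on sorafenib 3 and 38755 on control 3, against 78093 to 150469 on the other arrays. Not all were dimmer there: ALB had a log2 signal of 14.05 on sorafenib 3 and 14.43 on control 3, against 8.98 to 9.89 on the other arrays. APOA1, APOA2, TTR and GPC3 were each detected on 2 of 3 arrays in either group. Of 6 haematopoietic markers, 0 to 1 were detected on any array, but their summed level was 23399 and 16768 on sorafenib 3 and control 3, almost all of it RAC2, against 114 to 178 elsewhere; PTPRC, CD53 and CD48 were not detected on any array. Fibroblast markers summed to 628, 437 and 2922 on sorafenib arrays 1, 2 and 3, against 720, 809 and 5193 on control arrays 1, 2 and 3. Within each group COL1A1, COL3A1 and LUM were brighter on the array numbered 3, while COL1A2 and PDGFRB were dimmer there. DCN was not detected on any array. Within each pair the hepatocyte sum was also lower with sorafenib, at 141033, 78093 and 35164, against 150469, 101281 and 38755. In every pair 6 of the 10 hepatocyte markers and 3 of the 4 tested fibroblast markers were lower, against 22.2% of all tested genes. Higher in every pair were 1 hepatocyte marker, HNF4A (0.09, 1.47 and 0.29), and 0 fibroblast markers, against 21.5% of all tested genes. HNF4A was not detected on control array 2. Of 3 tested biliary markers, 1 was higher in every pair, EPCAM (0.16, 0.24 and 0.50), and 0 were lower. EPCAM was detected on neither array of pair 3. Of endothelial markers only PECAM1 was tested, and its sign differed between pairs. Of the hepatocyte markers, 4 were detected on neither array of pair 3. APOA1, APOA2 and TTR are among both the 6 and these 4, so that their sign in pair 3 is one between background signals. The median signal was 134 to 171 intensity units per array, and 13195 to 15227 symbols per array had a detection p under 0.05. A gene was tested if that held on at least 3 of the 6 arrays, which left 14641 genes and all 10 transporters; 8 transporters were detected on all 6 arrays. As the marker genes differ between the pairs and move with sorafenib within them, each result below is given pair by pair, and their part in these results was not tested. In bulk RNA, fewer cells of a type and less RNA per cell cannot be told apart.

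In pairs 1 and 2, sorafenib went with more SLC3A2 and SLC43A1 signal and less SLC7A5 and SLC7A1 signal, while 9 of the 10 transporters were higher in pair 3, against 49.3% of all tested genes. Across all 3 pairs, SLC3A2, SLC43A1, SLC7A11 and SLC1A5 were higher each time, that is 4 of 10, against 21.5% of all tested genes. SLC7A11 was detected on neither array of pair 2, and without it the count is 3. With median scaling the count was also 3. SLC1A5 counts through differences of only 0.02 and 0.03 in pairs 1 and 2. SLC38A2 was lower each time, 1 of 10, against 22.2% of all tested genes. In pair 3, 8 of the 10 were at least 1.5-fold higher, against 9.59% of all tested genes. Among these 8, SLC7A11 was not detected on control array 3 and SLC6A9 not on sorafenib array 3. SLC7A5, SLC7A1, SLC1A4 and SLC38A1 were lower in pairs 1 and 2 and higher in pair 3, a pattern of 4 of 10 transporters and 10.4% of tested genes. The median difference of the 10 was −0.09, −0.16 and 1.39 in pairs 1, 2 and 3, beside medians over all tested genes of 0.0006, 0.0030 and −0.0055. The median of the 10 mean differences was 0.61, and −0.12 without pair 3.

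No transporter passed the test over all genes in the main fit. With limma and the replicate number as a block, 0 of the 10 had an adjusted p under 0.05, as had 0% of the 14641 genes (0 genes; the smallest adjusted p was 0.101, and 2776 genes were under 0.05 before adjustment). Of the 10, SLC3A2, SLC43A1, SLC38A2 and SLC7A11 had an unadjusted p under 0.05, 4 of 10 against 19% of all tested genes. With a variance trend and robust estimation added, a setting already known to call more genes, limma called 0.505% of the genes as higher and 0.458% as lower, and SLC3A2 was the single transporter among them. An exact sign-flip test over 3 pairs cannot go below p = 0.25. With so few pairs, an adjusted p above the threshold does not show that a transporter was unaltered.

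**Figure D1:**
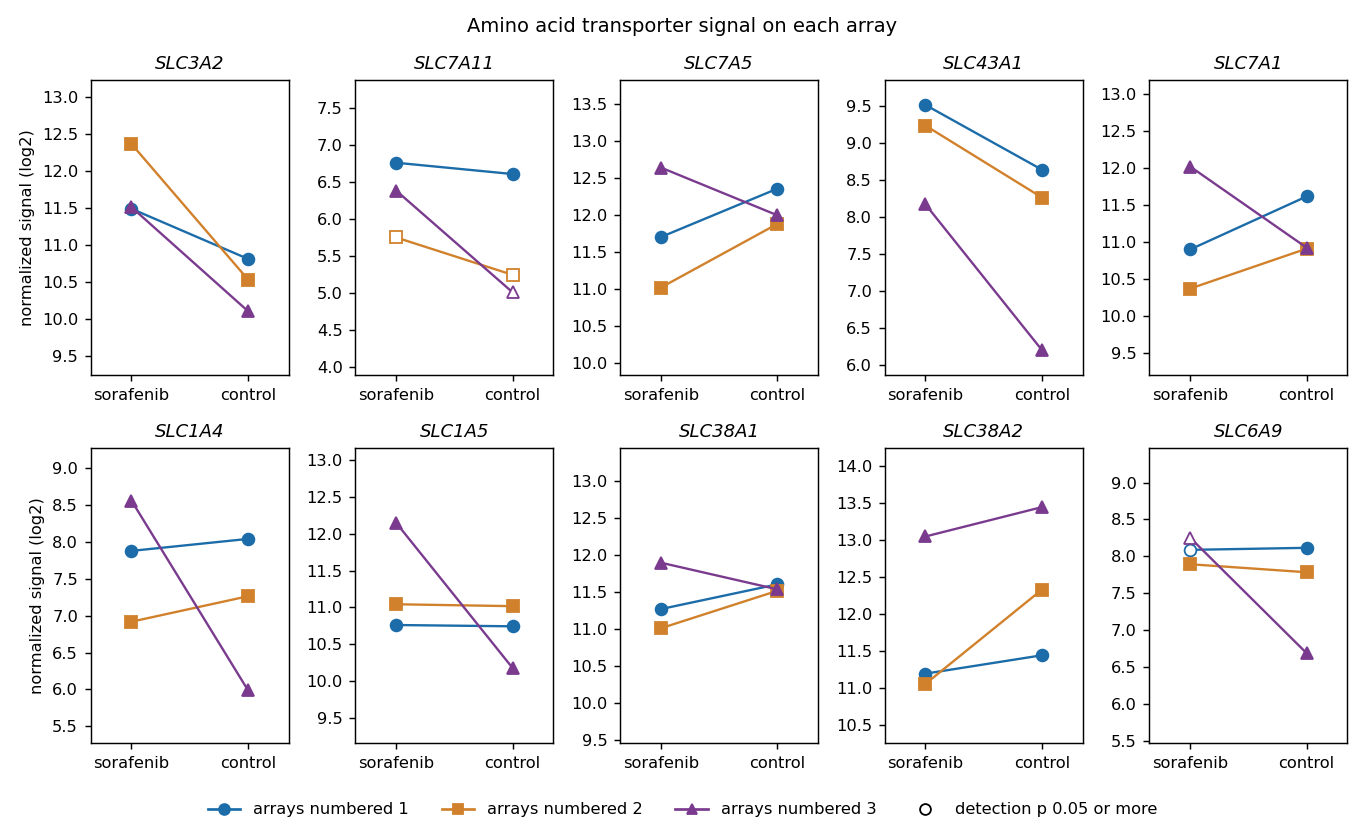
Normalized log2 signal of each transporter on each array, sorafenib left and control right; a line joins the arrays of the same number, open symbols mark a detection p of 0.05 or more, and every panel spans 4 log2 units. SLC3A2 had all 3 sorafenib arrays (11.49 to 12.37) above all 3 control arrays (10.10 to 10.81).

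SLC3A2, the heavy chain, was the clearest of the 10. Its signal was 11.49, 12.37 and 11.51 on sorafenib arrays 1, 2 and 3, against 10.81, 10.53 and 10.10 on control arrays 1, 2 and 3. Every sorafenib array was above every control array, as for 3.22% of tested genes. Before normalization the intensities were 3339, 4710 and 2974 with sorafenib, against 2087, 1521 and 1236 with DMSO. The pair differences were 0.68, 1.83 and 1.41 (1.60-, 3.56- and 2.65-fold), with a mean of 1.31 ± 0.58 (SD, n = 3 pairs; 95% confidence interval 0.73 to 1.89). In pairs 1, 2 and 3, 4.83%, 0.594% and 1.01% of tested genes had a larger increase. The adjusted p was 0.111 in limma with the replicate block and 0.0409 with the variance trend and robust estimation. Under the trend it was 0.15 without pair 2 and 0.13 when all symbols entered the background estimate, so that the call was lost, and it was 0.0316 without pair 1 and 0.00102 without pair 3.

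SLC7A11, the cystine and glutamate exchanger xCT, was a dim gene. It was detected on sorafenib arrays 1 and 3 and on control array 1, the minimum of 3 arrays for the test, and 93.0% of tested genes were brighter. Its log2 signal was 6.76, 5.75 and 6.38 with sorafenib, against 6.60, 5.24 and 5.00 with DMSO. The groups overlapped, and the largest gap was in pair 3, where only the sorafenib array had a detected signal. The differences were 0.15, 0.51 and 1.38, with a mean of 0.68 ± 0.63 (SD, n = 3 pairs; limma adjusted p = 0.229). Both arrays were detected in pair 1 only, so that the other differences, and each mean given here, include undetected signals. A difference between signals this close to background depends on the background correction, and the mean was 0.40 without it and 0.41 with an offset of 50. Without pair 3 the mean was 0.33.

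SLC7A5 (LAT1), the light chain that exchanges large neutral amino acids such as leucine for glutamine, was among the brighter genes. Its log2 signal was 11.70, 11.02 and 12.64 with sorafenib, against 12.36, 11.88 and 12.00 with DMSO. It was lower in pairs 1 and 2, by −0.65 and −0.86, and higher in pair 3, by 0.65, so that the mean of −0.29 ± 0.82 (SD, n = 3 pairs; limma adjusted p = 0.629) lies between pairs of opposite sign. Its heavy chain SLC3A2 and SLC7A5 thus differed in opposite directions in pairs 1 and 2 and in the same direction in pair 3.

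SLC43A1 (LAT3), which carries large neutral amino acids by facilitated diffusion without a heavy chain, was higher with sorafenib in every pair. Its log2 signal was 9.51, 9.23 and 8.17 with sorafenib, against 8.64, 8.26 and 6.20 with DMSO. The groups overlapped because both arrays numbered 3 had less signal than the others, while each sorafenib array was above its own control. The differences were 0.88, 0.97 and 1.97 (1.84-, 1.96- and 3.92-fold), with a mean of 1.27 ± 0.61 (SD, n = 3 pairs; 95% confidence interval 0.68 to 1.87). Control array 3 was near background, at 200 intensity units where the background mean was 139. Without background correction the mean over pairs was 0.86. In pairs 1, 2 and 3, 2.21%, 4.43% and 0.246% of tested genes had a larger increase. The adjusted p was 0.111 in limma with the replicate block and 0.0576 with the variance trend and robust estimation. The mean was 0.92 without pair 3, 0.52 without control array 3 alone (a fit with no block) and 0.23 when all symbols entered the background estimate.

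SLC7A1 (CAT1), which imports arginine and lysine, resembled SLC7A5. Its log2 signal was 10.90, 10.37 and 12.02 with sorafenib, against 11.61, 10.91 and 10.92 with DMSO. It differed by −0.72 and −0.54 in pairs 1 and 2 and by 1.10 in pair 3, with a mean of −0.05 ± 1.00 (SD, n = 3 pairs; limma adjusted p = 0.947). The sign of this mean turned without pair 1 (0.28) or pair 2 (0.19).

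The exchangers of small neutral amino acids, SLC1A4 (ASCT1) and SLC1A5 (ASCT2, a main route of glutamine), differed mostly in pair 3. SLC1A4 had a log2 signal of 7.87, 6.92 and 8.55 with sorafenib, against 8.04, 7.26 and 5.99 with DMSO. Its differences were −0.16, −0.34 and 2.57, and in pair 3 only 0.0615% of tested genes had a larger increase. The control array of pair 3 was near background, at 189 intensity units where the background mean was 139, and the mean over pairs was 0.40 without background correction. The mean was 0.69 ± 1.63 (SD, n = 3 pairs; limma adjusted p = 0.522), and −0.25 without pair 3. SLC1A5 had 10.76, 11.04 and 12.14 with sorafenib, against 10.75, 11.02 and 10.18 with DMSO. Although it counts as higher in all 3 pairs, its differences in pairs 1 and 2 were 0.02 and 0.03, beside 1.97 in pair 3, where 0.260% of tested genes had a larger increase. The mean was 0.67 ± 1.12 (SD, n = 3 pairs; limma adjusted p = 0.393), and 0.02 without pair 3.

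**Figure D2:**
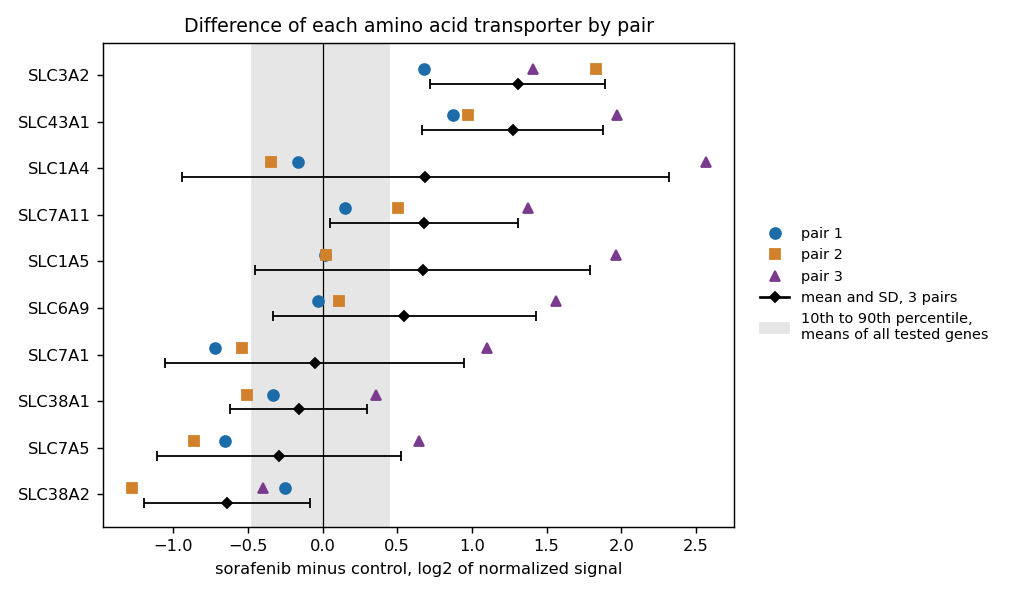
Sorafenib minus control (log2) for each transporter, ordered by mean; coloured symbols are the 3 pairs, diamonds and bars the mean and SD over pairs, and the grey band holds the means from the 10th to the 90th percentile of all tested genes. SLC3A2 and SLC43A1 lay above 0 in every pair, SLC38A2 below 0 in every pair, and SLC1A4 reached 2.57 in pair 3 only.

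The sodium-coupled carriers SLC38A1 (SNAT1) and SLC38A2 (SNAT2), which import glutamine and other small neutral amino acids, both had less signal with sorafenib in pairs 1 and 2. SLC38A2 had a log2 signal of 11.20, 11.06 and 13.05 with sorafenib, against 11.44, 12.33 and 13.45 with DMSO. It was lower in every pair, by −0.25, −1.28 and −0.40, although the groups overlapped because both arrays numbered 3 were bright. The mean was −0.64 ± 0.56 (SD, n = 3 pairs; limma adjusted p = 0.223), and 0.413-fold in pair 2 was its lowest ratio. SLC38A1 had 11.27, 11.01 and 11.89 with sorafenib, against 11.60, 11.51 and 11.53 with DMSO. Its differences were −0.33, −0.51 and 0.36, with a mean of −0.16 ± 0.46 (SD, n = 3 pairs; limma adjusted p = 0.707).

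SLC6A9 (GLYT1), a sodium- and chloride-coupled carrier of glycine, had a log2 signal of 8.09, 7.89 and 8.25 with sorafenib, against 8.12, 7.79 and 6.69 with DMSO. Its differences were −0.03, 0.11 and 1.56, so that the mean of 0.55 ± 0.88 (SD, n = 3 pairs; limma adjusted p = 0.396) rested on pair 3, and without it the mean was 0.04. It was detected on 1 of 3 sorafenib arrays and 3 of 3 control arrays although its mean signal was not lower with sorafenib. Sorafenib array 3, on which the mean difference rested, had a detection p of 0.168, and sorafenib array 1 had 0.306. The detection p-values of SLC6A9 were not those of a single probe.

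**Figure D3:**
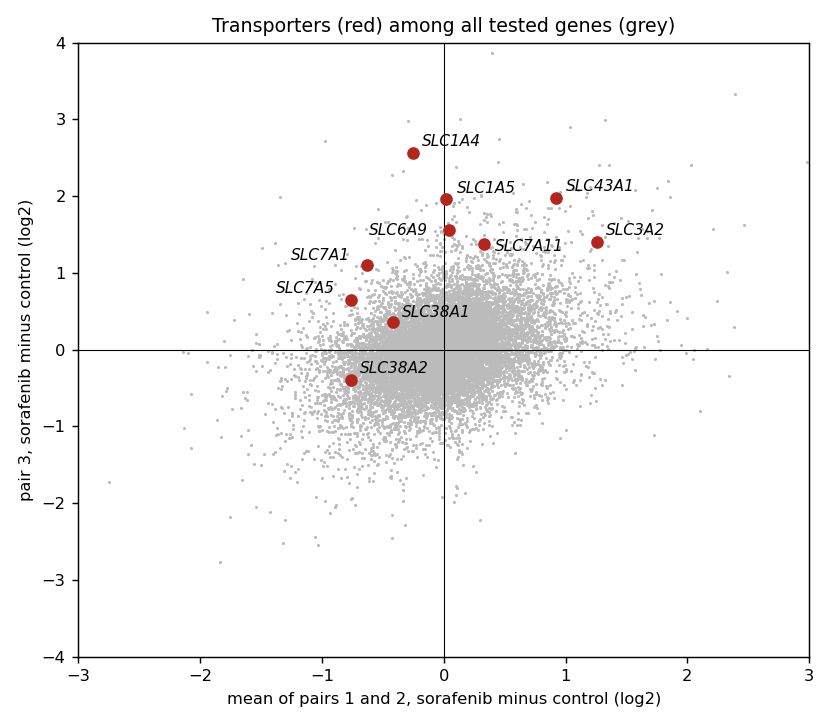
Difference in pair 3 (vertical) against the mean difference of pairs 1 and 2 (horizontal), both sorafenib minus control in log2; grey points are all tested genes (2 lie outside the axes) and red points the 10 transporters. SLC3A2 and SLC43A1 lay to the right of 0 and high, and SLC1A4, SLC1A5 and SLC6A9 were near 0 horizontally and between 1.56 and 2.57 vertically. The points of SLC7A11 and SLC6A9 include arrays without a detected signal.

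When the arrays numbered 3 were left out and the variance trend and robust estimation were used, a setting added after the values were seen, 5 of the 10 transporters passed the threshold. SLC3A2 (mean of pairs 1 and 2, 1.26; adjusted p = 0.00102) and SLC43A1 (0.92; adjusted p = 0.014) rose in that limma fit, against 4.38% of genes called higher. SLC7A5 (−0.76; adjusted p = 0.00448), SLC38A2 (−0.76; adjusted p = 0.0221) and SLC7A1 (−0.63; adjusted p = 0.0423) fell in it, against 5.01% of genes called lower. With the block alone, 0 transporters passed without pair 3, SLC3A2 being nearest (limma adjusted p = 0.0566), while 2.17% of genes did. The difference between pair 3 and the other pairs was not tested.

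Of 24 other amino acid transporters of the plasma membrane, 15 were tested. None was above 0 in every pair, against 21.5% of all tested genes, and 4 were below 0 in every pair, against 22.2%. Their median difference was −0.10, beside −0.0004 over all tested genes. For 8 of the 15, neither array of at least 1 pair was detected (6 of them in pair 3), so that their sign in that pair is one between background signals. None passed the threshold in limma, with or without the variance trend. SLC7A6, another light chain of SLC3A2, differed by −0.43, −0.39 and −1.47, and SLC1A1, a glutamate and cysteine carrier, by −0.39, −0.65 and −0.52; for both, all sorafenib arrays were below all control arrays, as for 3.25% of tested genes. The taurine carrier SLC6A6, detected on 1 of 3 sorafenib arrays and 3 of 3 control arrays, differed by −0.53 ± 0.36 and SLC36A4, a carrier of proline and tryptophan, by −0.43 ± 0.07 (SD, n = 3 pairs). SLC7A7, a further light chain of SLC3A2, differed by −0.10 ± 0.13. SLC7A2, a cationic amino acid carrier with a bright signal (log2 of 11.00 with sorafenib and 10.65 with DMSO), was not tested because it was detected on only 1 array. Among lysosomal transporters, 4 of 6 in the files were tested. SLC36A1, which exports small amino acids from the lysosome, was lower in each pair, by −0.63, −0.80 and −0.94 (mean −0.79 ± 0.15; SD, n = 3 pairs; limma adjusted p = 0.114). SLC15A4, a histidine and peptide carrier, was higher in each pair, at 0.20 ± 0.17.

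**Figure D4:**
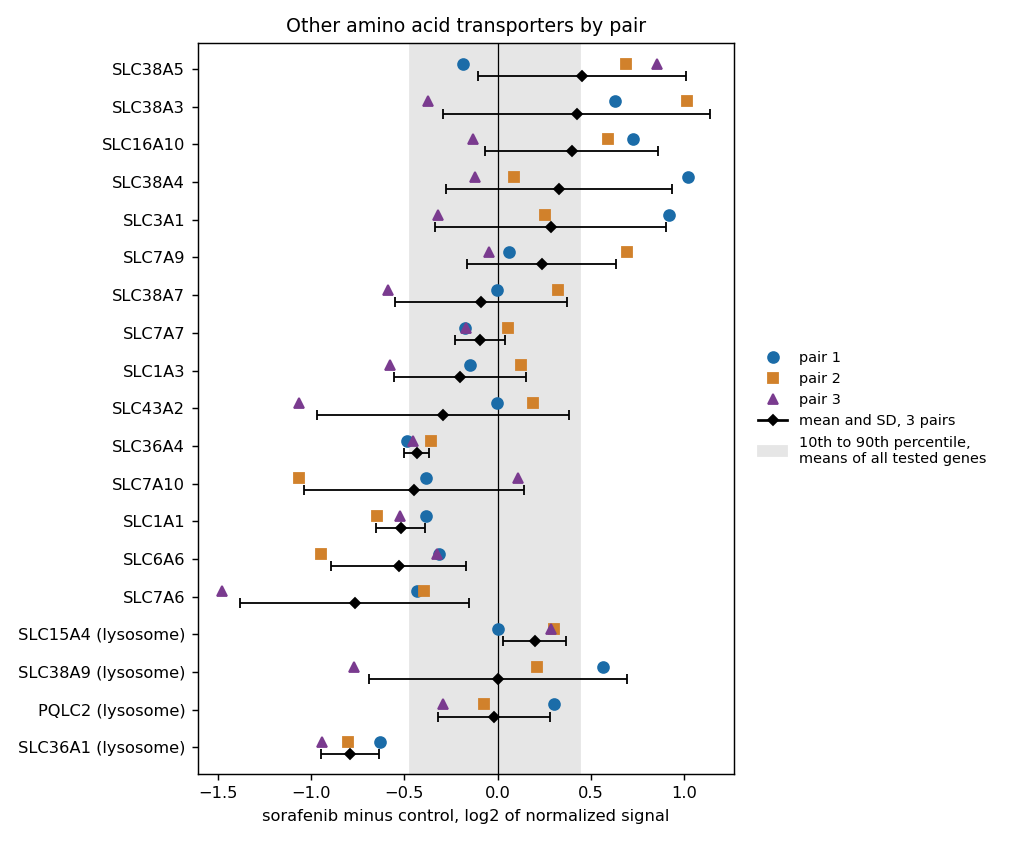
Sorafenib minus control (log2) for the 15 tested plasma membrane transporters outside the 10 and the 4 tested lysosomal ones; symbols, bars and the grey band are as in the plot of the 10 transporters by pair. None of the 15 was above 0 in every pair, against 21.5% of all tested genes, and SLC36A1 was below 0 in every pair.

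Of 11 transcription factors known to act on these transporters, 9 were tested, with a median of 0.29. In all 3 pairs, 5 of them were higher, against 21.5% of all tested genes, and none was lower, against 22.2%. One of the 5, MLXIPL, was detected on neither array of pair 2. ATF3 and BACH1 were not detected on any array and so not tested. ATF3 had a log2 signal of 8.73 to 10.37 with sorafenib, against 7.17 to 7.87 with DMSO, and its detection p-values were not those of a single probe. BACH1 had means of 5.56 and 5.47. DDIT3 (CHOP), a stress factor that pairs with C/EBP proteins, rose by 1.77, 3.02 and 3.33, and CEBPG, a partner of ATF4, by 0.95, 0.57 and 1.01, in limma with the variance trend and robust estimation (adjusted p = 0.0202 and 0.0386), in which 0.505% of genes were called higher; with the block alone neither passed (adjusted p = 0.101 and 0.114), and without pair 3 only DDIT3 did (adjusted p = 0.0216, against 0.103 for CEBPG). ATF4 differed by 0.24, 0.34 and 0.93, with all sorafenib arrays above all control arrays, as for 3.22% of tested genes, and MLXIPL by 0.46 ± 0.36 (SD, n = 3 pairs). NFE2L2, the activator of SLC7A11 named above, differed by −0.13, 0.23 and 0.46. MYC, an activator of SLC7A5 and SLC1A5, differed by −0.68, −0.10 and 0.98 and was singled out after its values were seen. Its order of signs was that of 10.4% of all tested genes, among them MYCN (−1.04, −0.94 and 0.13), but not that of SLC1A5.

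All 8 listed genes that make, use or break down glutathione or keep thiols reduced were tested, and none passed in limma with or without the variance trend. Their median was 0.17. In every pair 3 were above 0, against 21.5% of all tested genes, and 1 was below 0, against 22.2%. GSS, glutathione synthetase, differed by 0.24 ± 0.18, the lipid peroxide reductase GPX4 by 0.17 ± 0.13 and GGT1, which breaks down glutathione outside the cell and was detected on neither array of pair 3, by 0.16 ± 0.11 (SD, n = 3 pairs). TXNRD1, a thioredoxin reductase, was lower in each pair, by −0.98, −0.80 and −0.23, with all sorafenib arrays below all control arrays, as for 3.25% of tested genes. CHAC1, which degrades glutathione inside the cell and was singled out after its values were seen, was detected on both arrays of pair 1 only, where it differed by −1.11. In pair 3 the sorafenib array had a log2 signal of 7.89 and the control array no detected signal (5.17, detection p = 0.588), and in pair 2 neither array was detected, so that no exact difference was measured there. Of 7 listed proteins found in the files that stabilise or ubiquitinate the transporters, 4 were tested, with a median of 0.07; MARCH1, which ubiquitinates SLC3A2, was higher by 0.43 and 0.35 in pairs 1 and 2 and was detected on neither array of pair 3. RNF5, which acts on SLC1A5 and SLC38A2, was detected on 2 of 3 arrays in each group and differed by 0.14 ± 0.05 (SD, n = 3 pairs).

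**Figure D5:**
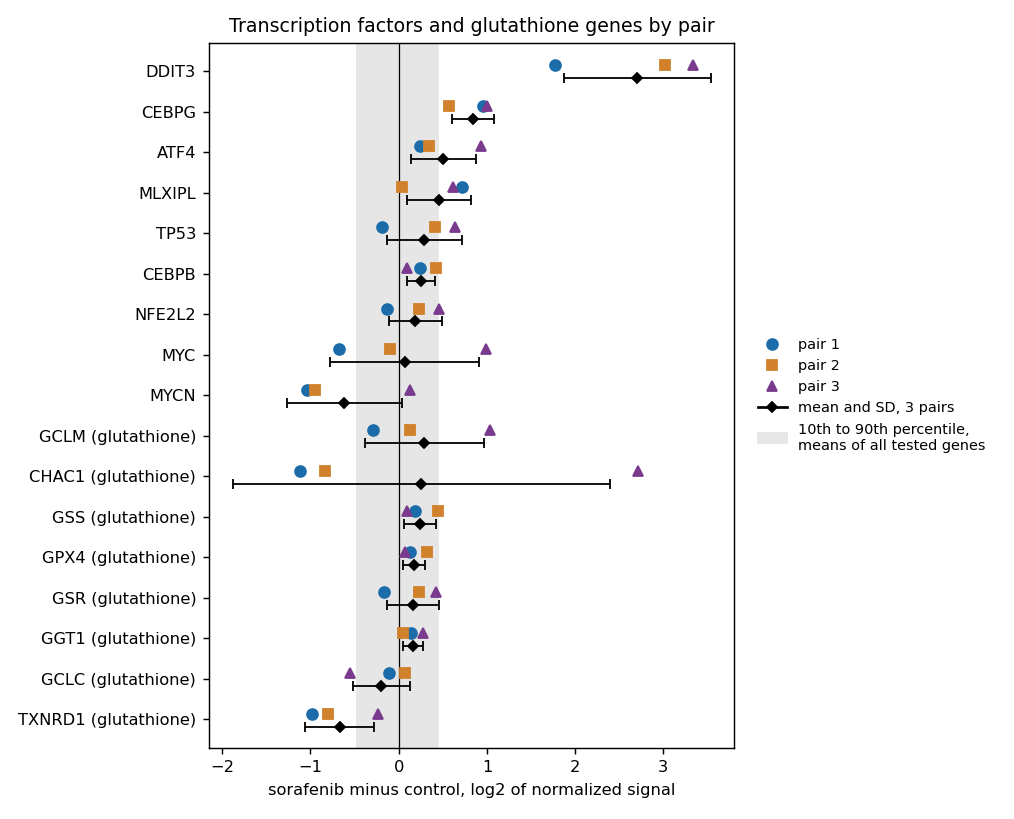
Sorafenib minus control (log2) for the 9 tested transcription factors and the 8 glutathione genes; symbols, bars and the grey band are as in the plot of the 10 transporters by pair. DDIT3 reached 1.77 to 3.33; the points of CHAC1 in pairs 2 and 3, MLXIPL in pair 2, GGT1 in pair 3 and GCLC in pair 1 include arrays without a detected signal.

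The genes most like SLC3A2 over the 6 arrays were the snoRNA host gene SNHG12 (Pearson's r = 0.987) and the symbols HS.568329 (0.989) and LOC388796 (0.984), out of 14641 tested. SNHG12 was higher in each pair, by 1.34, 2.38 and 1.98, which its choice by likeness to SLC3A2 made nearly certain. Those most like SLC7A11 were LOC728564 (r = 0.994), the sulfurtransferase MPST (0.987) and GMPS, an enzyme of guanine nucleotide synthesis (0.985). SLC7A11 was detected on 2 of 3 sorafenib arrays and 1 of 3 control arrays, so that its r values rest partly on undetected signals. These correlations describe 6 arrays that share pairs and normalization, and arrays of the same number resemble each other over most genes.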

How the data were processed

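Gene expression was measured in 6 samples on Illumina BeadChip arrays. The authors deposited signal intensities, named non-normalized, with 1 value per gene symbol and array and, per the file headers, a detection p-value beside each; how probes of a symbol were combined is not given in the sources used here. The deposited table of log2 values was not used, since its sorafenib columns were filled for a few symbols only. The number of arrays limits the precision. Background was corrected in limma 3.58.1 (R 4.3.3) by the normal-exponential model with detection p-values (offset 16). Its mean and SD were taken from 27009 symbols whose detection p-values were whole multiples of 1/770 on all arrays (tolerance 0.001), with values above 0 but under 1/770 not accepted. SLC3A2, SLC38A1 and SLC6A9 were not among these. Arrays were quantile-normalized and brought to log2, and genes were tested where the detection p was under 0.05 on 3 or more arrays.

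Sorafenib was compared with control by limma with the replicate number as a block, as the rule for these genes asks for comparison within each number, with Benjamini-Hochberg adjustment over 14641 genes and a threshold of 0.05. Deviations from the group mean correlated at 0.904, 0.791 and 0.926 between arrays of number 1, 2 and 3. The arrays numbered 3 differ from the others in both groups, and correlations between arrays of different numbers were not part of this check. These values therefore cannot show that the numbers 1 and 2 pair the samples. The fit was tested on simulated data before use. Alternatives changed the block, variance estimate, weights, background, offset, scaling, detection filter and arrays used. The text names all 10 transporters and, of each further list, genes past the threshold in any fit and up to 4 with the largest mean difference among those of 1 sign in all pairs. SLC7A2, SLC7A7, ATF3, BACH1, NFE2L2, MYC, MYCN, CHAC1, CD44, ALB, APOA2 and RAC2 were added after their values were seen. The transporters and lists were chosen with earlier results of these data known.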

Additional observations from a re-analysis of the deposited data

How the results depend on the processing

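The count of transporters past the threshold with the replicate block was 0 in each direction, and stayed 0 without the block, with array weights, without background correction, with median scaling, with an offset of 50, with detection on all 6 arrays, with no detection filter, with the background estimated from all symbols and without each pair or array in turn. In the fits without a block, with all arrays or with 1 left out, no gene at all passed and the transporters' adjusted p-values were 0.964 or more, so these counts of 0 say nothing about stability. It was 1 higher with the variance trend and robust estimation, 0 to 2 higher and 0 to 3 lower when pairs were then left out in turn, and 0 with the background then estimated from all symbols; the last 2 were chosen after seeing the data. The count over all genes was 141 with the variance trend and robust estimation, 10 with array weights, 3 without background correction, 317 without pair 3 with the block alone, 0 without pair 1 or 2, and under the trend 49, 1 and 1375 without pair 1, 2 and 3. Transporters higher in every pair numbered 4, and 3 with median scaling. Transporters lower in every pair numbered 1, and 5 in the 2 pairs left without pair 3. Single values turned sign in the fits that left out arrays: SLC7A1 was −0.63 to 0.28 without a pair (0.19 without pair 2, also under the trend) and −0.52 to 0.31 without an array, SLC38A1 −0.42 to 0.013 and −0.41 to 0.031, SLC7A5 −0.76 to −0.0045 and −0.72 to 0.094, and SLC1A4 −0.25 to 1.20 and 0.13 to 1.16. With the background estimated from all symbols, its SD was 604 to 837 intensity units, against 19.7 to 31.9 from symbols that behaved as single probes. That is above the signal of the dim transporters, and SLC7A11 was then at 0.03, SLC1A4 at 0.06, SLC6A9 at 0.05, SLC43A1 at 0.23 and the median of the 10 at 0.04, while SLC3A2 was at 1.65. SLC7A11 and SLC6A9 had no value with detection on all 6 arrays. Counts in all 3 pairs were not formed where 1 array was left out, since its pair is then broken.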
